A study of Mus musculus with 38 samples.

Results

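The 34 macrophage and leukocyte genes described here were chosen by name from the 29564 genes of a left ventricular RNA-seq data set in mice. They comprise 5 general leukocyte genes, 9 macrophage and myeloid genes, the 3 chains of complement C1q, 6 genes of resident macrophages, 3 of monocytes, 4 of macrophages that handle lipid and matrix, 2 of neutrophils and 2 of lymphocytes. Emr1 is the symbol that the tables use for Adgre1, which encodes the macrophage antigen F4/80. All 34 genes were present in the tables and all 34 passed the filter on low counts.

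The libraries, 1 per mouse, came from homogenised left ventricles of 38 wild-type C57BL6 mice. Healthy hearts formed the non_failing group (n = 8). The other mice developed HFpEF, heart failure in which the ejection fraction is preserved, on a high-fat diet together with L-NAME, an inhibitor of nitric oxide synthesis. They received vehicle (the group HFpEF+Veh, n = 8), TYA-018, which inhibits the deacetylase HDAC6 (the group HFpEF+TYA-018, n = 11), or empagliflozin, an inhibitor of the glucose transporter SGLT2 (HFpEF+SGLT2i, n = 11). The 3 HFpEF groups therefore share the diet and L-NAME and differ in the daily oral treatment. The age of the mice is not given in the labels, and labels and methods disagree on their sex and on the length of treatment.

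Macrophages are the most common leukocytes of the healthy heart. Long-lived resident cells clear dying cells and debris and carry receptors such as TIMD4, LYVE1, FOLR2 and MERTK, whereas monocytes enter from the blood along gradients of chemokines read by the receptor CCR2. Macrophages that take up lipid or work on scarred matrix are known for TREM2, GPNMB, galectin 3 and osteopontin, the product of Spp1. In tissue homogenates, fewer cells of a type and less RNA per cell cannot be told apart.

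Libraries held between about 21450000 and 59280000 counts (median about 29530000). The 5 cardiomyocyte markers summed to between 11490 and 22486 TPM, the length-scaled unit of transcript abundance, in every library, as for ventricular tissue. A few libraries stood apart. The vehicle library V2523 held 891 TPM of 8 hepatocyte markers, against 1.82 to 24.6 TPM in the other vehicle libraries, and the member results that rest on it are given with and without it. The HFpEF+SGLT2i library V2571 had the highest value of its group for 22 of the 33 members other than Tyrobp, and the lowest sum of the cardiomyocyte markers. In the non_failing group V2502 was highest for 21 of these 33 members and V2501 lowest for 19. The vehicle library V2530 was highest for 11 members and also held 565 TPM of the 5 fibroblast markers, against a group median of 292 TPM. Under TYA-018, V2555 was highest for 14 of the 33 members and V2546 lowest for 15. The 4 erythroid markers summed to 25608 TPM in the vehicle library V2529, which was highest for 6 members. The next vehicle library held 15980 TPM of them, against a group median of 5644 TPM. Under TYA-018 these sums reached 13808 TPM, in V2551.

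The DNA before the start of a gene is shown for 5 members on which the results turn or which varied together between hearts. They are Spp1 and Trem2, called higher in HFpEF, the alarmin pair S100a8 and S100a9, and the complement gene C1qb. The sequences come from RefSeq on GRCm38.p6, are written 5′ to 3′ on the strand of the gene and end before its annotated start, and capitals mark the letters GAGGAA, a core of sites for the myeloid factor PU.1, or TTGCNNAA, letters found in sites of C/EBP factors, read on either strand. Spp1 is shown at chr5:104434861-104435110 (+), Trem2 at chr17:48346151-48346400 (+), S100a8 at chr3:90668821-90668977 (+), S100a9 at chr3:90695722-90695971 (−) and C1qb at chr4:136886201-136886450 (−). No annotated exon lies in these windows.
Spp1: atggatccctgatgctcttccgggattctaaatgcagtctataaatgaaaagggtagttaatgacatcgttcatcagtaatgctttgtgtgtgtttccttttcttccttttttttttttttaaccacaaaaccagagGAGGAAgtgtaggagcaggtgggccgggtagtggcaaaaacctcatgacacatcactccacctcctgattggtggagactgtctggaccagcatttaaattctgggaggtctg
Trem2: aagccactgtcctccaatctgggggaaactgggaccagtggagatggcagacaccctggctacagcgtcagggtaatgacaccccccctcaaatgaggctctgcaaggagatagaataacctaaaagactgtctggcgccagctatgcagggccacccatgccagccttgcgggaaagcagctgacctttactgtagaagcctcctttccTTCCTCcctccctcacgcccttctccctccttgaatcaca
S100a8: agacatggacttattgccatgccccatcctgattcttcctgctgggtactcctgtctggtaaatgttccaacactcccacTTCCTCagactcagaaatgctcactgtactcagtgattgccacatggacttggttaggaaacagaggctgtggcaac
S100a9: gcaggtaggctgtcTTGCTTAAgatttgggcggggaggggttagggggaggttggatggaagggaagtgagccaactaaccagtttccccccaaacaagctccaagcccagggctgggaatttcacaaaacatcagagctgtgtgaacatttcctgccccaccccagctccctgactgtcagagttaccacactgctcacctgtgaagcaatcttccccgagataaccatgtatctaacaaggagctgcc
C1qb: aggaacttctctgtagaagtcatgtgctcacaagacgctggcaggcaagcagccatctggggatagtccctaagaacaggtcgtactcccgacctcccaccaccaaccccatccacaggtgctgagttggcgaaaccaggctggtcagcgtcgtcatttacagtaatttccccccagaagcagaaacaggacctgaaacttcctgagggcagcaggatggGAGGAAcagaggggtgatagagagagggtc

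Promoters were matched for 26 of the 34 members, which have 30 start sites in the table. Windows on chromosome 18, where Cd14 and Csf1r lie, were left out, also from the numbers over all windows. In the 250 bases before the start, GAGGAA or its complement occurred in 16 of these 30 windows (53.3%), against 7639 of all 32851 windows (23.3%). TTGCNNAA occurred in 3 of the 30 windows (10%), those of Cd68, S100a9 and 1 start of Spp1, against 9.56% of all windows. The single GAGGAA match of Trem2 starts 40 bases before the gene and that of C1qb 30 bases before it. The S100a9 window holds TTGCNNAA 236 bases before the start and no GAGGAA. The S100a8 window holds GAGGAA matches 170 and 36 bases before the RefSeq start. The stretch of S100a8 shown above has 157 bases and does not reach the match at 36 bases. Such matches describe the sequence and do not show that a factor binds.

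Levels of the members spanned a wide range. Lysozyme 2 (Lyz2), an antibacterial enzyme of macrophages and neutrophils, was highest with a median of 70.7 TPM over the 38 libraries (39.7 to 120 TPM). The C1q chains followed, with medians of 44.7 TPM for C1qa, 29.9 TPM for C1qb and 29.0 TPM for C1qc. C1q is the recognition part of the classical complement pathway and is made by macrophages. The lowest members with a count in every library were Cd3e, a chain of the T cell receptor complex, at 0.159 TPM and Spp1 at 0.269 TPM. These 2 levels rest on 1 to 30 counts per library for Cd3e and on as few as 3 counts for Spp1.

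**Figure D1:**
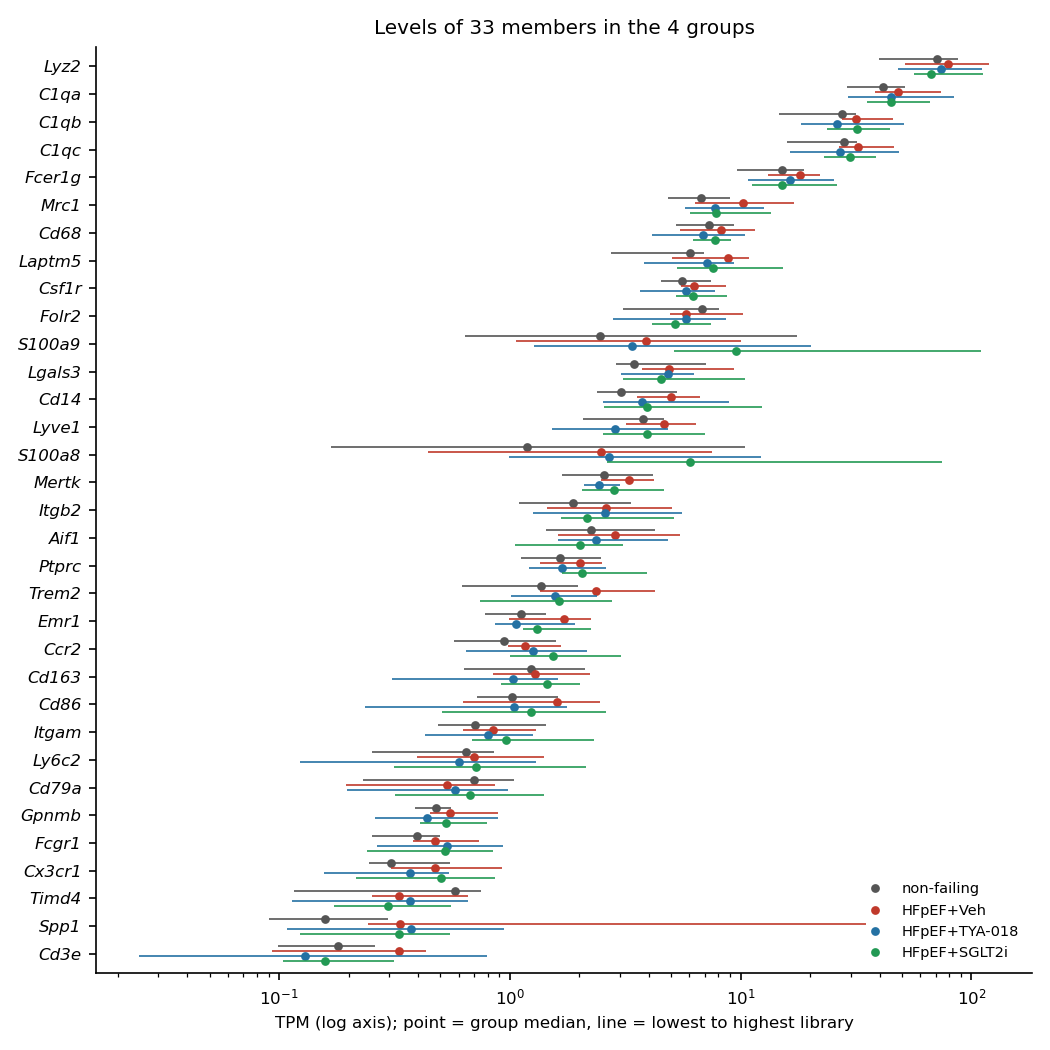
TPM of 33 members (all but Tyrobp) on a log axis, ordered by the median over all libraries; points are group medians and lines run from the lowest to the highest library of a group (n = 8, 8, 11 and 11). Lyz2 and the C1q chains lie at the top, S100a8 and S100a9 span the widest ranges in non_failing and HFpEF+SGLT2i hearts, and 1 vehicle library carries Spp1 to 34.9 TPM.

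The vehicle group had the highest mean TPM of the 4 groups for 23 of the 33 members other than Tyrobp, and non_failing hearts the lowest for 20. By the group median, which a single library moves less, the corresponding numbers were 19 and 18. The same ranks were not computed over all genes, so these numbers have no background. TPM values are scaled within each library only, and the part of scaling in this order was not tested. The ranges of the groups overlapped for each of the 34 members in each of the 6 comparisons. How many of all genes had ranges without overlap was not counted.

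HFpEF+Veh was compared with non_failing to ask what the model alone did to these genes. Spp1 and Trem2 were called higher, and no member was called lower. Spp1 encodes osteopontin, a secreted matrix and cytokine-like protein, and Trem2 a lipid-sensing receptor of macrophages. A total of 28 of the 34 members had a fitted log2 fold change above 0, and the median over members was 0.26, against 0.01 over all genes tested. Markers of other cells differed in the same comparison. The 5 fibroblast markers had a median of 0.33, with Lum (0.86) and Pdgfra (0.33) called higher, all 5 cardiomyocyte markers were below 0, with Tnnt2 (-0.43) and Myl2 (-0.37) called lower, and the 4 erythroid markers had a median of 1.27 with none called. Without V2523 all 4 erythroid markers were called higher (median 1.39), 4 of 5 cardiomyocyte markers were below 0, and the 8 hepatocyte markers had a median of -3.64 with 7 called lower, against 0.78 with none called when V2523 was included. Their part in the member values was not tested. The 2 called members have to be read against a background of 3.15% of all genes called (433 of 13765) and 1.77% called higher. These tests used the quasi-likelihood test of edgeR with p-values adjusted over all genes, and an unadjusted p under 0.05 was reached by 6 members.

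Spp1 lies on chromosome 5 (104435118 to 104441050, GRCm38, plus strand). Its TPM in non_failing hearts was 0.133 in V2501, 0.297 in V2502, 0.091 in V2503, 0.160 in V2504, 0.261 in V2507, 0.177 in V2508, 0.157 in V2509 and 0.117 in V2510. In vehicle hearts it was 0.526 in V2521, 34.9 in V2523, 0.243 in V2526, 0.402 in V2527, 0.245 in V2528, 0.266 in V2529, 2.03 in V2530 and 0.266 in V2532. V2523 was thus far above all other libraries of the study, V2530 was second, and 4 of the other vehicle values lay below the highest non_failing value. The fitted log2 fold change was 4.65 (SE 0.85, adjusted p 0.000954, higher in 8 of 8, which counts the vehicle libraries above the non_failing mean in log2 CPM, counts scaled to the size of the library). Without V2523 it was 1.60, with an adjusted p of 0.0336. With limma Spp1 was not called (1.10 on the log2(TPM + 1) scale, adjusted p 0.145), and with only the 2 groups fitted it did not pass the filter on low counts and was not tested. The vehicle mean was 4.86 ± 12.2 TPM (SD, n = 8) with that library and 0.568 ± 0.652 TPM (SD, n = 7) without it.

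V2523 also held transcripts of liver cells. Albumin (Alb) was at 493 TPM in it and at 0.242 to 9.49 TPM in the other vehicle libraries. The non_failing libraries held liver transcripts as well, with 6.09 to 103 TPM of Alb and 15.8 to 230 TPM of the 8 hepatocyte markers, V2504 being highest, while these markers summed to at most 2.63 TPM under TYA-018 and 6.97 TPM under empagliflozin. The 5 Kupffer cell markers, genes of the resident macrophages of the liver, summed to 12.9 TPM in V2523, and the next vehicle library reached 6.27 TPM. Sums of 11.4 TPM in V2563 (HFpEF+SGLT2i) and 9.24 TPM in V2555 (HFpEF+TYA-018) occurred with few hepatocyte transcripts, but single markers differed. Clec4f was at 1.62 TPM in V2523, 0.110 TPM in V2563 and 1.18 TPM in V2555, and Vsig4 at 1.87, 1.42 and 1.57 TPM. Cd5l was at 0.020 TPM in V2563 and 0 TPM in V2555, and Marco at 0 and 0.010 TPM. Cd5l was at 1.41 TPM and Marco at 0.624 TPM in V2523, while the other vehicle libraries did not pass 0.158 and 0.045 TPM. Plac8, a gene of monocytes and dendritic cells, was at 21.5 TPM there and at no more than 2.13 TPM in the rest of the group. The part of liver RNA in the Spp1 value of V2523 was not tested.

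Trem2 (chromosome 17, 48346401 to 48354147, plus strand) ranged from 0.619 to 1.97 TPM in non_failing hearts with a median of 1.37 TPM, and from 1.35 to 4.27 TPM in vehicle hearts with a median of 2.37 TPM. The 2 ranges overlapped through the vehicle libraries V2532, the lowest at 1.35 TPM, and V2523 at 1.67 TPM. The log2 fold change was 0.76 (SE 0.21, adjusted p 0.0395), and it was higher in 8 of 8. The call was close to the threshold. Of 38 fits with 1 library left out each, 29 kept it, among them the fit without V2523 (0.83, adjusted p 0.0184), and it was lost without V2501, V2503, V2504, V2508, V2521, V2526, V2528, V2529 or V2530, with the largest adjusted p, 0.128, and a log2 fold change of 0.62 without V2530. It was also lost with no filter on low counts (adjusted p 0.0524) and with only the 2 groups fitted (adjusted p 0.118).

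Galectin 3 (Lgals3), a sugar-binding protein of activated macrophages, and Gpnmb, a glycoprotein of macrophages loaded with lipid, belong to the same group of 4. Lgals3 was at 3.96 ± 1.38 TPM in non_failing (SD, n = 8) and 5.23 ± 1.76 TPM in vehicle hearts (SD, n = 8), and Gpnmb at 0.469 ± 0.0628 and 0.578 ± 0.142 TPM (SD, n = 8 each). V2530 was the highest vehicle library for both, at 9.37 and 0.891 TPM. Neither gene was called.

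**Figure D2:**
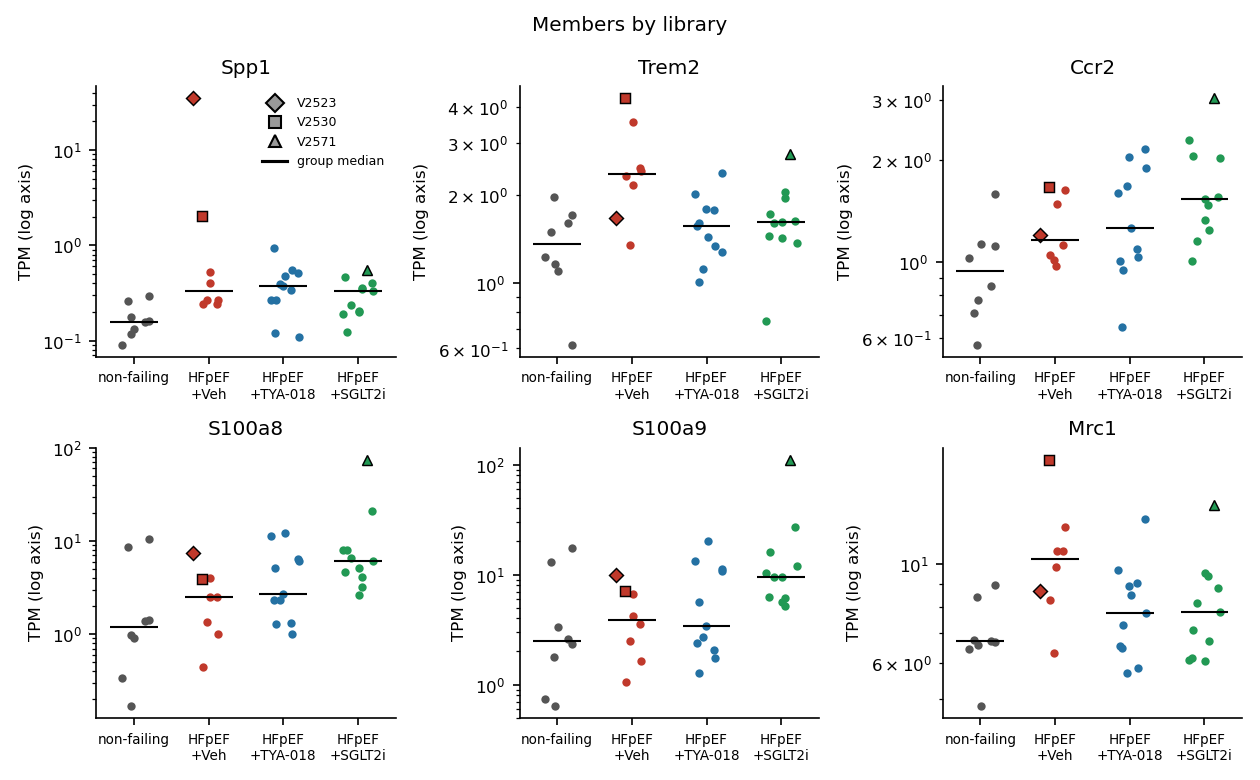
TPM of Spp1, Trem2, Ccr2, S100a8, S100a9 and Mrc1 in each of the 38 libraries, on log axes that differ between panels; lines are group medians and the libraries V2523 (diamond), V2530 (square) and V2571 (triangle) are marked. V2523 reaches 34.9 TPM of Spp1 and V2571 reaches 74.3 TPM of S100a8 and 110 TPM of S100a9.

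Among the resident macrophage genes, Mrc1, the mannose receptor CD206, came nearest to a call between vehicle and non_failing hearts. It ranged from 4.82 to 8.96 TPM in non_failing (median 6.71) and from 6.31 to 17.0 TPM in vehicle hearts (median 10.2), with V2530 at the top. Its log2 fold change was 0.46 (SE 0.16, adjusted p 0.0998, higher in 7 of 8). Of the 38 fits without 1 library it passed the threshold in 1, that without V2532, with an adjusted p of 0.0401. The other 5 genes of this group had fitted values on both sides of 0. Timd4, a receptor for dying cells that marks long-lived resident macrophages, was at 0.525 ± 0.228 TPM in non_failing (SD, n = 8) and 0.418 ± 0.176 TPM in vehicle hearts (SD, n = 8). The scavenger receptor Cd163 was at 1.30 ± 0.472 and 1.37 ± 0.432 TPM, and the folate receptor Folr2 at 6.42 ± 1.63 and 6.70 ± 2.01 TPM (SD, n = 8 each).

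All 9 macrophage and myeloid genes had fitted values above 0, from 0.12 to 0.51, and none was called by edgeR. Emr1 was the nearest, at 1.13 ± 0.193 TPM in non_failing and 1.72 ± 0.495 TPM in vehicle hearts (SD, n = 8 each), which the model fitted as 0.51 on the log2 scale (SE 0.18, adjusted p 0.117, above the non_failing mean in 7 of 8). Cd86, a costimulatory ligand for T cells, followed with 0.44 (SE 0.22, adjusted p 0.308). Among the general leukocyte genes, Laptm5, a lysosomal membrane protein of blood cells, had 0.41 (SE 0.18, adjusted p 0.265), from 5.74 ± 1.32 to 8.33 ± 2.11 TPM (SD, n = 8 each). The V2501 library was the lowest non_failing library for both Emr1 and Laptm5. Without it the value of Laptm5 was 0.31, with an adjusted p of 0.461.

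The C1q genes, clustered on chromosome 4, had fitted values close to each other that did not pass the test. C1qa was at 40.9 ± 6.76 TPM in non_failing and 53.9 ± 13.3 TPM in vehicle hearts (SD, n = 8 each), C1qb at 26.0 ± 5.35 and 35.3 ± 7.95 TPM, and C1qc at 26.8 ± 5.35 and 34.8 ± 7.08 TPM. Their fitted log2 fold changes ran from 0.25 to 0.32. No C1q gene reached an unadjusted p under 0.05 with edgeR.

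TYA-018 was then compared with vehicle. Spp1 was the only member called, lower under the drug, and that call depended on V2523. The background was 1.93% of all genes called and 1.1% called lower. Spp1 ranged from 0.108 to 0.939 TPM in HFpEF+TYA-018 hearts with a median of 0.375 TPM, while the vehicle median was 0.334 TPM. The log2 fold change was -3.40 (SE 0.69, adjusted p 0.00397, lower in 10 of 11), and without V2523 it was -0.35 with an adjusted p of 0.662. Medians of the 2 groups thus lay side by side. Both drug comparisons share the 8 vehicle libraries and so share V2523.

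A further 5 members reached an unadjusted p under 0.05 in this comparison without passing the adjusted threshold in edgeR. Trem2 ranged from 1.01 to 2.37 TPM in HFpEF+TYA-018 (median 1.57), and its log2 fold change against vehicle was -0.48 (SE 0.20, adjusted p 0.186, lower in 10 of 11). Mertk, a receptor by which macrophages engulf dying cells, was at 2.47 ± 0.277 TPM (SD, n = 11) against 3.31 ± 0.511 TPM in vehicle hearts (SD, n = 8), and its fitted difference was -0.30 on the log2 scale (SE 0.13, adjusted p 0.215) with all 11 libraries below the vehicle mean. With library size as the only scaling, Mertk passed the threshold at -0.43 with an adjusted p of 0.0442, and that scaling placed the median of all genes at -0.14 in this comparison. The hyaluronan receptor Lyve1 had -0.39 (SE 0.19, adjusted p 0.269), the fractalkine receptor Cx3cr1 -0.51 (SE 0.25, adjusted p 0.275) and Emr1 -0.34 (SE 0.17, adjusted p 0.276). Without V2523, the highest vehicle library for Emr1, the values of Cx3cr1 and Emr1 were -0.49 and -0.29 and their unadjusted p-values 0.0679 and 0.102. Lyve1 is also expressed by lymphatic endothelium, and the 5 lymphatic markers had a median log2 fold change of -0.24, with 4 of 5 below 0. The part of that cell type in the Lyve1 value was not tested.

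In all, 9 of the 34 members had a value above 0 under TYA-018, and the median was -0.07, against -0.01 over all genes. All 6 resident macrophage genes were below 0, from -0.39 to -0.02, and none of them was called. Without V2523 Timd4 was at 0.08, and the other resident macrophage genes stayed below 0. The 5 fibroblast markers (median -0.27) and the 5 endothelial markers (median -0.13) were also all below 0, 4 of 5 cardiomyocyte markers were above 0 (median 0.17), and none of these 15 markers was called. Without V2523, 4 of 5 fibroblast markers were below 0 and 3 of 5 cardiomyocyte markers above 0. All 8 hepatocyte markers, in which V2523 is rich, were called lower (median -6.05), and without V2523 the number called was 2 and the median -2.58. The part of these cells in the member values was not tested. The C1q genes were between -0.11 and -0.04.

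Empagliflozin against vehicle again gave Spp1 as the single called member, lower under the drug, with a background of 0.85% of all genes called and 0.719% called lower. Spp1 ranged from 0.123 to 0.552 TPM in HFpEF+SGLT2i hearts, with a median of 0.331 TPM, against the vehicle median of 0.334 TPM. The log2 fold change was -3.82 (SE 0.71, adjusted p 0.00171, lower in 11 of 11), and without V2523 it was -0.78 with an adjusted p of 0.492. Without that library 2 of 13801 genes were called in this comparison (0.0145%), none of them a member.

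Among the members, the neutrophil pair had the largest positive values in this comparison. S100a8 and S100a9 encode the subunits of calprotectin, a calcium-binding alarmin stored in neutrophils and monocytes. S100a8 ranged from 0.443 to 7.48 TPM in vehicle hearts (median 2.49) and from 2.63 to 74.3 TPM in HFpEF+SGLT2i hearts (median 6.05), with V2571 at the top and V2573 next at 21.0 TPM. S100a9 ranged from 1.06 to 9.99 TPM (median 3.89) and from 5.14 to 110 TPM (median 9.57), with the same 2 libraries at the top. The log2 fold changes were 2.27 for S100a8 (SE 0.73, adjusted p 0.165) and 2.18 for S100a9 (SE 0.68, adjusted p 0.152), each higher in 11 of 11. Without V2571 they were 1.34 (adjusted p 0.339) and 1.29 (adjusted p 0.318).

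V2571 held other neutrophil transcripts as well. Retnlg was at 38.9 TPM in it, and V2573 had the next highest value of the group at 6.08 TPM. Ngp, a granule protein of immature neutrophils, was at 7.18 TPM, against at most 0.151 TPM in the rest of the group. The 12 other neutrophil and mast cell genes summed to 64.3 TPM in V2571, to 3.78 to 13.9 TPM in the remaining HFpEF+SGLT2i libraries and to at most 10.5 TPM in the other groups. Cd14, a coreceptor for bacterial lipopolysaccharide, was at 12.4 TPM in V2571 and at no more than 4.31 TPM in the rest of its group. The 4 erythroid markers of V2571, at 9770 TPM, were the highest of the group too, with the next library at 5880 TPM, and their part in these values was not tested.

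Ccr2, Aif1 and Trem2 also reached an unadjusted p under 0.05 between HFpEF+SGLT2i and vehicle, with adjusted p-values in edgeR of 0.398, 0.406 and 0.445. The value of Ccr2 was 0.48 (SE 0.21), Aif1, an actin-bundling protein of macrophages, -0.46 (SE 0.20), and Trem2 -0.43 (SE 0.20). Trem2 ranged from 0.745 to 2.76 TPM under empagliflozin (median 1.62). The median over the 34 members was -0.05, with 13 above 0, against 0.01 over all genes. Without V2523 the member median was -0.06, with 10 above 0. In the same comparison all 4 erythroid markers (median -0.89) and 4 of 5 fibroblast markers (median -0.30) were below 0 with none called, and 8 of 8 hepatocyte markers, in which V2523 is rich, were called lower (median -5.75), while without V2523 none was called by edgeR, 4 were at an unadjusted p under 0.05 and the median was -1.80. The part of these cells in the member values was not tested.

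**Figure D3:**
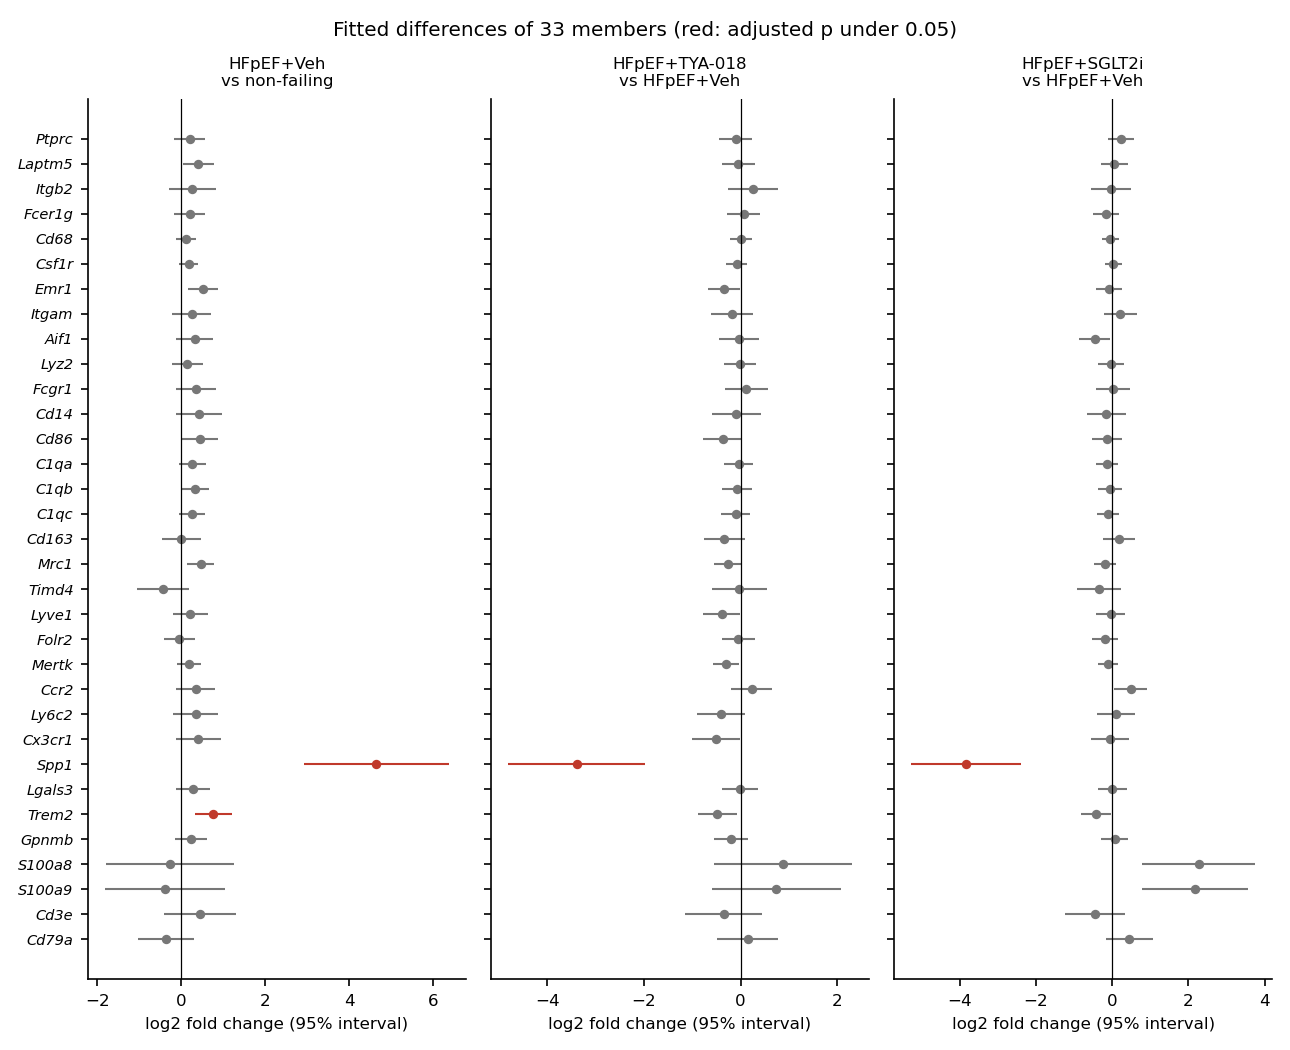
Fitted log2 fold changes of 33 members (all but Tyrobp) with 95% intervals, in HFpEF+Veh against non_failing and in each drug group against HFpEF+Veh; red marks an adjusted p under 0.05 in edgeR. Spp1 is called in all 3 panels and Trem2 in the first; without V2523 the Spp1 values in the drug panels are -0.35 and -0.78 and are not called.

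The drugs were compared with each other directly, with 11 libraries each. No member was called by edgeR, and the background was 0% of all genes (0 of 13765 called, 1821 at an unadjusted p under 0.05). DESeq2 called 185 of the 10562 genes to which it gave an adjusted p, none of them among the 22 members with one, and limma called 0 genes. The unadjusted threshold was reached by 7 members. Cd163, the scavenger receptor for haemoglobin bound to haptoglobin, had the smallest p, with 1.01 ± 0.378 TPM under TYA-018 and 1.47 ± 0.378 TPM under empagliflozin (SD, n = 11 each). Its log2 fold change was -0.52 (95% interval -0.91 to -0.12, adjusted p 0.226, lower in 9 of 11). S100a9 had -1.45 (95% interval -2.64 to -0.25), S100a8 -1.39 (-2.66 to -0.13), Ly6c2 -0.50 (-0.96 to -0.04), Ptprc -0.33 (-0.64 to -0.02) and Aif1 0.43 (0.05 to 0.80), with adjusted p-values of 0.283 to 0.347 in edgeR. Without V2571 the values of S100a9 and S100a8 were -0.55 and -0.47. Of the markers of other cells, all 4 erythroid markers were above 0 (median 0.75). All 5 endothelial markers (median -0.11) and all 8 hepatocyte markers (median -0.65) were below 0. None of these markers was called by edgeR, and their part in the member values was not tested.

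Each drug group was also set against non_failing hearts. In HFpEF+SGLT2i, Ccr2 was the single called member, higher than in non_failing, with a background of 6.45% of all genes called and 3.46% called higher. Ccr2 (chromosome 9, 124101950 to 124113557, plus strand) ranged from 0.573 to 1.59 TPM in non_failing hearts (median 0.940), from 0.977 to 1.66 TPM in vehicle hearts (median 1.16), from 0.647 to 2.15 TPM under TYA-018 (median 1.26) and from 1.01 to 3.03 TPM under empagliflozin (median 1.53). V2502 gave the top of the non_failing range and lay above the median of each other group. The log2 fold change of HFpEF+SGLT2i against non_failing was 0.83 (SE 0.21, adjusted p 0.0128, higher in 11 of 11). The call held whichever of the 38 libraries was left out, from 0.72 without V2571 to 0.95 without V2502.

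Ccr2 under TYA-018 stood at 0.57 against non_failing on the log2 scale (SE 0.21, adjusted p 0.0922, higher in 10 of 11) and passed the threshold without V2502 (adjusted p 0.0430). Between the drugs themselves the Ccr2 difference was not among the 7 members at an unadjusted p under 0.05. No member was called between HFpEF+TYA-018 and non_failing by edgeR, against a background of 7.39% of all genes, while DESeq2 called 1 member, Spp1, limma called 0, and 3 members reached an unadjusted p under 0.05. Spp1 had 1.25 (SE 0.78, adjusted p 0.366) in this comparison, was called with only the 2 groups fitted, and without V2523 had 1.25 with an adjusted p of 0.0584. Besides Ccr2, the members at an unadjusted p under 0.05 were Fcgr1, the high-affinity IgG receptor, with 0.46 (SE 0.22, adjusted p 0.206) and Laptm5 with 0.36 (SE 0.17, adjusted p 0.213). Of the markers of other cells, all 4 erythroid markers were above 0 (median 1.11), with 1 called higher. Among the 5 fibroblast markers 1 was called higher, and 4 of 5 cardiomyocyte markers were below 0 with none called. All 8 hepatocyte markers were called lower (median -6.41). Their part in the member values was not tested.

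Timd4 was 1 of the 4 members with a value below 0 in the comparison of HFpEF+SGLT2i with non_failing, and it was not called. It ranged from 0.116 to 0.746 TPM in non_failing hearts (median 0.580) and from 0.174 to 0.558 TPM under empagliflozin (median 0.298). The low end of the non_failing range was V2501 alone, and the highest HFpEF+SGLT2i library, V2563, lay below the non_failing median. The log2 fold change was -0.78 (SE 0.28, adjusted p 0.0917, lower in 10 of 11), and it was -0.93 with an adjusted p of 0.0245 without V2501. In vehicle and HFpEF+TYA-018 hearts the Timd4 medians were 0.332 and 0.369 TPM. These levels rest on 8 to 79 counts per library.

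The neutrophil pair in HFpEF+SGLT2i against non_failing had log2 fold changes of 2.01 for S100a8 (SE 0.72, adjusted p 0.0890) and 1.80 for S100a9 (SE 0.67, adjusted p 0.107). S100a8 was called by DESeq2 (2.00, adjusted p 0.0387) and by limma (1.85 on the log2(TPM + 1) scale, adjusted p 0.0393). V2502 and V2507 carried the pair in the non_failing group, with 10.4 and 8.53 TPM of S100a8, while the other 6 non_failing libraries held at most 1.43 TPM. Without V2502 the S100a8 value was 2.59 with an adjusted p of 0.0368, and without V2571 it was 1.07 with an adjusted p of 0.363. In this comparison 30 of the 34 members were above 0, with a median of 0.26, against 0.01 over all genes. Of the markers of other cells, 2 of 5 cardiomyocyte markers were called lower, 1 fibroblast marker was called higher and 1 lower, and 7 of 8 hepatocyte markers were called lower (median -5.49). Their part in the member values, Ccr2 and Timd4 included, was not tested.

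Tyrobp, the adaptor DAP12 that carries the signal of TREM2, was listed at exactly 0 in 24 of the 38 libraries. These were 5 non_failing and 6 vehicle libraries, 6 under TYA-018 and 7 under empagliflozin. In the non_failing group the values above 0 were 12.6 TPM in V2502, 8.76 TPM in V2503 and 3.98 TPM in V2504, and in the vehicle group 14.1 TPM in V2530 and 8.45 TPM in V2532. The 5 TYA-018 values above 0 ran from 4.37 to 11.3 TPM and the 4 empagliflozin values from 6.09 to 9.19 TPM. No library lay between 0 and 3.98 TPM. Fcer1g, the other adaptor of this kind, had 9.60 to 26.1 TPM in every library, and Trem2 and Lyz2 also had counts throughout. A listed 0 may be a failed estimate of the transcript model and not an absence of RNA, which was not tested, so no mean is given for Tyrobp. Its fitted values, from -0.27 to 0.61 on the log2 scale with SE of 1.21 to 1.42, are included in the counts over 34 members and change each by at most 1.

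**Figure D4:**
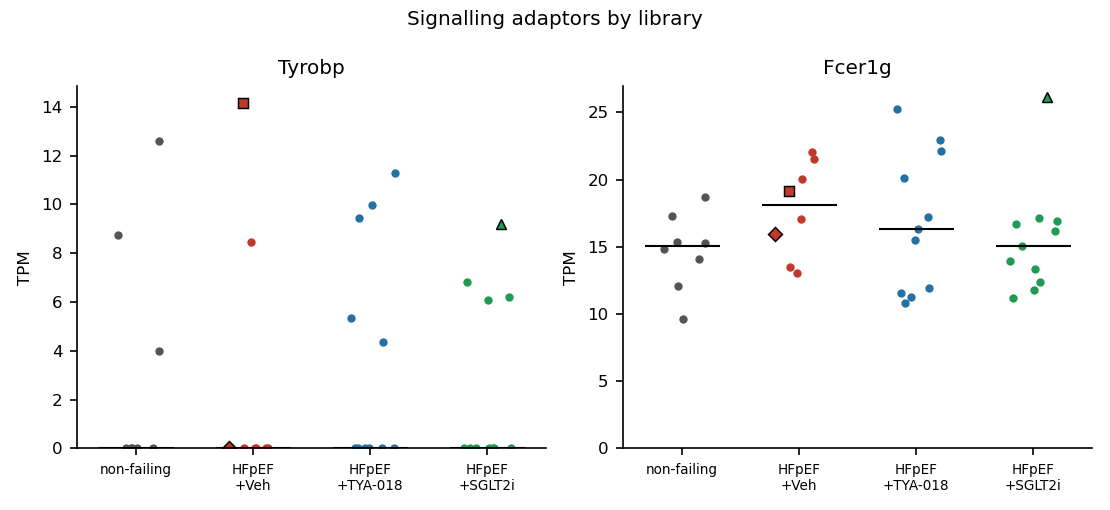
TPM of the adaptors Tyrobp and Fcer1g in each of the 38 libraries, on linear axes from 0; lines are group medians, and V2523 (diamond), V2530 (square) and V2571 (triangle) are marked. Tyrobp is listed at 0 in 24 libraries and at 3.98 TPM or more in the other 14, whereas Fcer1g lies between 9.60 and 26.1 TPM in all of them.

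The remaining monocyte and lymphocyte genes were low. Ly6c2, a surface marker of inflammatory monocytes, was at 0.600 ± 0.208 TPM in non_failing and 0.809 ± 0.361 TPM in vehicle hearts (SD, n = 8 each) and at 0.554 ± 0.318 and 0.849 ± 0.486 TPM under TYA-018 and empagliflozin (SD, n = 11 each). Its counts are shared by a model with close paralogs and are uncertain, and the effective length that the deposited table gives it ran from 707 to 2315 bases between libraries. Cx3cr1 was at 0.368 ± 0.130 and 0.525 ± 0.199 TPM (SD, n = 8 each), then 0.334 ± 0.130 and 0.480 ± 0.201 TPM (SD, n = 11 each). Cd79a, the signalling chain of the B cell receptor, was at 0.678 ± 0.271, 0.575 ± 0.222, 0.553 ± 0.280 and 0.750 ± 0.301 TPM in the same order of groups. Cd3e had 1 to 30 counts, and its highest value, 0.796 TPM, belonged to the HFpEF+TYA-018 library V2551. Neither lymphocyte gene was called in any of the 6 comparisons in edgeR, and neither was among the genes called under another setting.

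Members of some pairs varied together between hearts of the same group. Correlations were computed over the 38 libraries on log2 CPM with the group mean subtracted, for 5 pairs, with two-sided permutation within groups and adjustment over the 5 pairs. S100a8 and S100a9 had r = 0.98 and rho = 0.96 (permutation p 1e-05 for both, adjusted p 2.5e-05), and r was 0.97 without V2502 and V2571. C1qa and C1qb had r = 0.94 and rho = 0.93 (permutation p 1e-05 for both, adjusted p 2.5e-05), and r was 0.92 without V2555 and V2571. The value 1e-05 is the smallest these permutations can give. Timd4 and Folr2 had r = 0.69 and rho = 0.66 (permutation p 8e-05 and 9e-05, adjusted p 0.000133 and 0.00015), and r was 0.67 without V2501 and V2549.

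Spp1 and Gpnmb had r = 0.03 and rho = 0.19 (permutation p 0.823 and 0.249, adjusted p 0.823 and 0.311), and r was 0.11 without V2523 and V2530. Ccr2 and Ly6c2 had r = 0.23 and rho = 0.16 (permutation p 0.182 and 0.358, adjusted p 0.228 and 0.358), and r was 0.11 without V2548 and V2571. On log2(TPM + 1) the last r was 0.62 (permutation p 8e-05), a setting that changes the unit, the scaling and the added constant together.

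**Figure D5:**
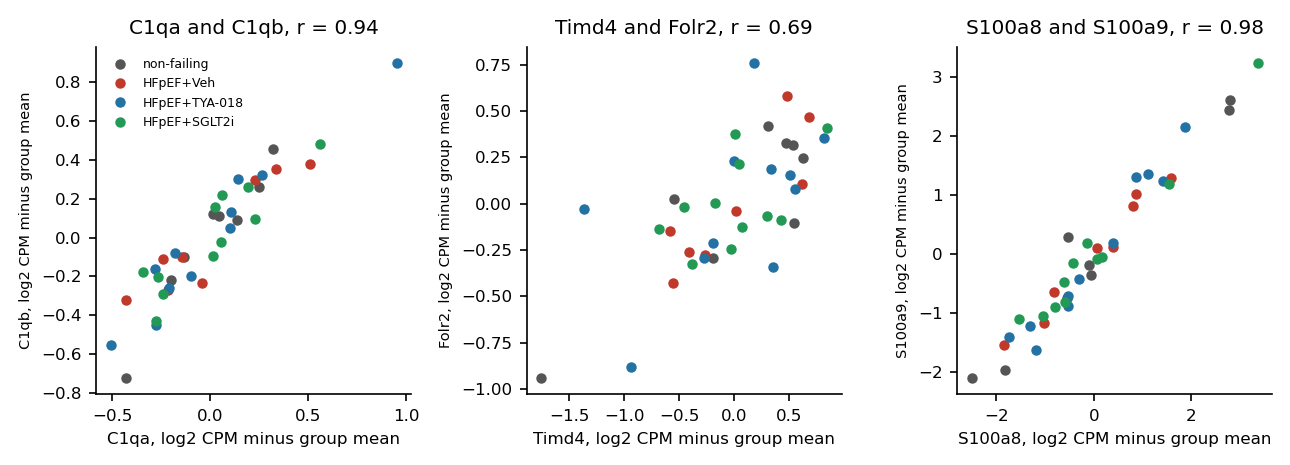
Group-centred log2 CPM of C1qa and C1qb, Timd4 and Folr2, and S100a8 and S100a9; each point is 1 of the 38 libraries, coloured by group. The points of the C1q and S100 pairs lie close to a line (r = 0.94 and 0.98) and those of Timd4 and Folr2 scatter more widely (r = 0.69).

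Another 109 genes related to leukocytes, sorted into 7 lists by role, placed the members in context, and 97 of them were tested. The lists include 12 ligands of member receptors, so the numbers below do not count genes of leukocytes alone. Between vehicle and non_failing hearts 6 of the 97 were called, all higher, against 3.15% of all genes called and 1.77% called higher, and 76 of 97 had values above 0 with a median of 0.19. Sirpa, the receptor by which macrophages read the signal CD47, had 0.34 (SE 0.07, adjusted p 0.00475), and Ptpn6, the phosphatase SHP-1 that acts behind such receptors, had 0.66 (SE 0.14, adjusted p 0.00495). Fcrls, a receptor-like gene of resident macrophages and microglia, had 0.79 (SE 0.19, adjusted p 0.0147). Cx3cl1, the ligand of the member Cx3cr1, had 0.44 (SE 0.12, adjusted p 0.0281). Each was higher in 8 of 8 vehicle libraries in edgeR, and the call of Cx3cl1 was lost in 7 of the 38 fits without 1 library, with the largest adjusted p, 0.0690, without V2508. The other 2 called genes were Ccl12 and Plac8, the latter with the V2523 value of 21.5 TPM given above. Without V2523, the log2 fold change of Plac8 was 0.52 instead of 2.07 and was not called (adjusted p 0.517), while Ccl12 was at 1.08 (adjusted p 0.0192). The call of Ptpn6 was lost with an offset of effective lengths (adjusted p 0.0579) and that of Cx3cl1 with only the 2 groups fitted (adjusted p 0.0583).

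The 12 ligands of member receptors included 2 of these called genes, Cx3cl1 and Ccl12, and 8 of 12 had values above 0. Ccl12, a chemokine read by CCR2 in mice, ranged from 1.25 to 4.99 TPM in non_failing hearts (median 3.61), from 3.94 to 9.67 TPM in vehicle (median 7.39), from 3.96 to 12.6 TPM under TYA-018 (median 5.95) and from 1.84 to 7.30 TPM under empagliflozin (median 4.33). Against non_failing the log2 fold change was 0.98 in vehicle (SE 0.28, adjusted p 0.0479), 1.20 under TYA-018 (SE 0.27, adjusted p 0.00400) and 0.25 under empagliflozin (adjusted p 0.662). The direct difference between the drugs was 0.95 (SE 0.24, adjusted p 0.0984 in edgeR, higher under TYA-018 in 11 of 11). Csf1, Il34 and Gas6, ligands of CSF1R and MERTK, were not called in any of the 6 comparisons by edgeR.

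Against vehicle, TYA-018 gave 1 called gene among the 97, the lipopolysaccharide receptor Tlr4, lower by -0.58 (SE 0.15, adjusted p 0.0364, lower in 10 of 11). That call was lost in 12 of the 38 fits without 1 library, with the largest adjusted p, 0.0961, without V2532, and also with an offset of effective lengths (adjusted p 0.0719) and with only the 2 groups fitted (adjusted p 0.0994). Empagliflozin against vehicle gave 0 called genes in edgeR with 14 at an unadjusted p under 0.05, while DESeq2 called 1 and limma 0. The direct comparison of the drugs gave 0 in edgeR with 14 at an unadjusted p under 0.05, and 0 by limma and by DESeq2, which gave an adjusted p to 54 of the 97.

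Against non_failing, 7 of the 97 were called under TYA-018 and 6 under empagliflozin, shares near the 7.39% and 6.45% of all genes. Sirpa was called in both, with 0.30 (adjusted p 0.00418) and 0.29 (adjusted p 0.00576), and so was Ptpn6, with 0.45 (adjusted p 0.0281) and 0.51 (adjusted p 0.0129). With limma neither gene was called in these 2 comparisons, with adjusted p-values of 0.0962 and 0.0697 for Sirpa and 0.249 and 0.380 for Ptpn6. Ptpn6 was also lost in both with an offset of effective lengths (adjusted p 0.161 and 0.336). Under TYA-018, library size alone ended the calls of Sirpa (adjusted p 0.0723) and Ptpn6 (adjusted p 0.0761), and Ptpn6 was lost in 7 of 38 fits without 1 library, with the largest adjusted p, 0.0641, without V2510. Fcna, a lectin of the complement system made by macrophages, was lower in both, with -1.04 in each (adjusted p 0.0169 and 0.0181), from a median of 2.01 TPM in non_failing to 0.643 and 0.927 TPM, and without V2502 the adjusted p under empagliflozin was 0.0504. Chil3, a chitinase-like protein of monocytes and macrophages, was called higher in both, by 3.03 under TYA-018 (SE 0.90, adjusted p 0.0324) and 3.84 under empagliflozin (SE 0.91, adjusted p 0.00622), the latter with 3.30 TPM in V2571 and at most 0.363 TPM elsewhere in that group. Without V2571 the empagliflozin value was 2.52 with an adjusted p of 0.0306. In non_failing hearts Chil3 was at 0 TPM in V2501, V2503, V2508 and V2509 and at most 0.072 TPM in the others. Both fold changes are therefore taken over a group close to 0. The list of T, B and NK cell genes, of which 12 of 17 were tested, had no called gene in any of the 6 comparisons by edgeR or limma, nor by DESeq2 in the 5 comparisons in which it gave these genes an adjusted p, and at most 1 gene at an unadjusted p under 0.05.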

How the data were processed

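RNA was captured by its poly(A) tail with a stranded kit and sequenced on an Illumina instrument. Per the methods, reads went through fastp and then salmon (1.6.0 per the labels) with GRCm38 transcripts, and the authors used tximport to obtain gene values. The labels also list a human build, which was not used. The deposited expected counts are estimated reads per gene, the deposited TPM values are length-scaled by the authors within each library, and another deposited table holds effective lengths in bases. Unmapped columns numbered 0. Reads shared by paralogs are divided by a model, which makes Ly6c2 uncertain.

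Groups and mouse numbers came from sample titles. Mouse numbers differ between groups, so nothing was paired. P-values of the fits set differences between groups against the spread between mice.

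Expected counts were rounded, genes kept with filterByExpr (13765) and scaled by TMM, and 6 comparisons tested with edgeR 4.0.16 (R 4.3.3) in 1 model of 4 groups. P-values were adjusted over all genes (Benjamini-Hochberg), with calls at an adjusted p under 0.05. Fits were tested on simulated data. Alternatives were RLE scaling, library size alone, no filter, a length offset, a fit of 2 groups, DESeq2 1.42.0, limma 3.58.1 on log2(TPM + 1) with genes counted in at least 90% of libraries, and leaving out each library. The members, lists and tests were chosen with earlier results of these data known. Named are the called members, with up to 6 per comparison by p, and up to 4 called genes of the other lists per comparison by p. Added were Ccl12 and Plac8 in vehicle and Chil3 under TYA-018, each against non_failing. Kit and Ms4a7 under TYA-018 and Fcrls and Cd28 under empagliflozin, also called against non_failing, are not described. Coordinates are from GENCODE M21.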

Additional observations from a re-analysis of the deposited data

Results flagged for a closer look

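Within the groups of 8, each member other than Tyrobp was examined for a library whose gap to its neighbour takes up most of the range of the group (Dixon's 95% limit). Groups of 11 were not examined. Of 66 combinations of member and group, 9 stood out. The limit flags about 1 in 20 where values follow a normal distribution, which was not checked for TPM. The members also share libraries, so the 9 cannot be set against that rate.

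Spp1 in the vehicle library V2523 was at 34.9 TPM with the next library at 2.03 TPM, and the gap took 0.949 of the range. The vehicle library V2530 stood out for Lgals3, at 9.37 TPM with the next at 5.31 TPM, and for Gpnmb, at 0.891 TPM with the next at 0.639 TPM. Itgb2, the beta chain shared by leukocyte integrins, was at 5.06 TPM in the vehicle library V2526 with the next at 2.84 TPM.

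In the non_failing group V2502 was high for Itgam, the alpha chain of the integrin CD11b, at 1.44 TPM with the next at 0.886 TPM, for Aif1 at 4.23 TPM with the next at 2.41 TPM and for Lgals3 at 7.09 TPM with the next at 4.36 TPM. V2501 was low for Laptm5, at 2.75 TPM with the next at 5.34 TPM, and for Lyz2, at 39.7 TPM with the next at 65.3 TPM.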

How the results depend on the processing

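No paired analysis was possible because the mouse numbers differ between groups. The number of called members in HFpEF+Veh against non_failing, 2 as reported, was 1 with no filter, 0 with only the 2 groups fitted, 1 with limma and 1 to 3 without single libraries. In HFpEF+TYA-018 against vehicle the number, 1 as reported, was 2 with library size alone, 0 with only the 2 groups fitted, 0 with DESeq2, 0 with limma and 0 to 1 without single libraries. In HFpEF+SGLT2i against vehicle it was 1 as reported and 0 with only the 2 groups fitted, 0 with DESeq2, 0 with limma and 0 to 1 without single libraries. In both drug comparisons the 0 came without V2523. DESeq2 gave Spp1 as -0.27 and -0.70 there, and limma, on the log2(TPM + 1) scale, as -0.76 and -0.86, whereas the fit of only 2 groups gave -3.41 and -3.84 (adjusted p 0.0808 and 0.167). Between HFpEF+TYA-018 and non_failing the number, 0 as reported, was 1 with only the 2 groups fitted, 1 with DESeq2 and 0 to 1 without single libraries. Between HFpEF+SGLT2i and non_failing, 1 as reported, it was 2 with DESeq2, 2 with limma and 1 to 3 without single libraries, and the 3, without V2502, were Ccr2, S100a8 and S100a9. The correlation of Ccr2 and Ly6c2 was 0.62 on log2(TPM + 1). Except for V2523, the cause was not tested. Over all genes, calls in HFpEF+TYA-018 against vehicle numbered 266 as reported, 1096 with library size alone, 618 with no filter, 402 with DESeq2, 58 with 2 groups and 42 with limma. In HFpEF+SGLT2i against vehicle they numbered 117, 457 with no filter, 3 with 2 groups, 0 with limma and 2 without V2523. Against non_failing, limma gave 597 under TYA-018 (1017 as reported) and 527 under empagliflozin (888). Among the named genes and vehicle means, 2165 values kept their direction and side of the threshold (33 of them vehicle means without V2523, which 1 library of 8 cannot move by 1 SD), 59 lost and 11 gained a call, and none changed sign. The Timd4 value of TYA-018 against vehicle, which changed sign without V2523, was not among them. Depth limits Cd3e, at 1 to 30 counts per library.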

Other observations

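Clec4f, a lectin known from Kupffer cells and named here after its values were seen, was called higher than in non_failing hearts in all 3 HFpEF groups in edgeR. Its TPM ran from 0.014 to 0.397 in non_failing, from 0.269 to 1.62 in vehicle with V2523 at the top and 0.859 next, from 0.067 to 1.18 under TYA-018 and from 0.110 to 0.739 under empagliflozin. The log2 fold changes were 2.28 (SE 0.44, adjusted p 0.00190), 2.26 (SE 0.43, adjusted p 0.000598) and 2.09 (SE 0.43, adjusted p 0.00153), and these comparisons share the 8 non_failing libraries. Without V2523 the vehicle value was 1.75 (adjusted p 0.00713). Of the hepatocyte markers, 8 of 8 were called lower than in non_failing under TYA-018 and 7 of 8 under empagliflozin, and in vehicle 7 of 8 were called lower without V2523 (median -3.64), a library with which the median was 0.78 and 0 were called by edgeR, with 0 at an unadjusted p under 0.05. Of the other Kupffer cell markers tested, Vsig4 had 1.10 (SE 0.41, adjusted p 0.154; 0.94, adjusted p 0.212 without V2523) and Slc40a1 -0.23 (SE 0.23, adjusted p 0.674) in vehicle against non_failing. Cd5l, not tested, was at 0 in 9 of 11 libraries under TYA-018 and 8 of 11 under empagliflozin, and reached 0.300 TPM in non_failing.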
